A study of Mus musculus with 4 samples.

Results

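ATF4, a basic leucine zipper transcription factor, and the genes of amino acid supply that it is known to serve were examined as a set of 34 genes: 9 regulators and feedback factors, 8 enzymes of amino acid and one-carbon synthesis, 5 amino acid transporters and 12 cytosolic tRNA synthetases. They were taken from a written list of symbols, and all 34 were found among the 27179 genes of the deposited FPKM values (fragments scaled by gene length and by mapped reads), Mars under its current symbol Mars1. RNA-sequencing was performed on LICs, the Mac-1+/c-Kit+ leukemia-initiating cells that the labels call LSC, sorted from the bone marrow of mice with MLL-AF9 leukemia. All libraries share the C57BL/6 strain, a labelled age of 6 weeks and the MLL-AF9 fusion oncogene, carried with YFP by a retrovirus in Lin- fetal liver cells that were transplanted into irradiated C57BL/6 recipients. The groups were 2 libraries labelled WT and 2 labelled CD274-/- (CD274-null), called here WT 1, WT 2, CD274-null 1 and CD274-null 2. The sources used here say neither from how many mice nor from which transplantation a library came, and tissue is named as the source of the RNA in the study's methods but sorted cells in the labels. The p-values therefore measure the spread between these libraries, which may be technical.

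ATF4 is the main effector of the integrated stress response. When amino acids run short or unfolded proteins build up, kinases phosphorylate the initiation factor eIF2, general translation slows and the Atf4 mRNA is translated more. ATF4 then pairs with C/EBP and other leucine zipper proteins and activates transporters, serine and asparagine synthesis and tRNA charging. RNA levels, which are all that was measured here, do not show the phosphorylation of eIF2 or the amount of ATF4 protein.

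Recovered reads on genes summed to between 8452662 and 11048767 per library. Cd274, the targeted gene, had an FPKM of 2.80 and 0.945 in the libraries labelled WT and of 1.43 and 2.29 in those labelled CD274-null, so it did not separate the labels, and every direction below rests on the labels alone. Hoxa9 and Meis1, transcription factors that MLL-AF9 keeps on, were even across the libraries, with 71.3 to 75.8 and 35.6 to 44.6 FPKM. Of the 10 markers of the labelled cells only Mpo, the peroxidase of myeloid granules, was a candidate, with 444 and 403 in the WT libraries against 1427 and 925 in the null ones (log2 difference 1.44 ± 0.31 SE, limma unadjusted p = 0.00319, adjusted p = 0.251), and not with any 1 of the 4 libraries left out (limma unadjusted p = 0.0105 to 0.0360). Ptprc, which encodes the leukocyte antigen CD45, had 72.8 and 86.8 against 53.3 and 53, and Csf1r, a receptor of monocytic cells, had 19.7 in WT 1 and 33.2 to 44.9 in the other 3. Kit, which encodes the sorted c-Kit receptor, had 6.59 FPKM in the library labelled WT 1 and 16.2 to 19.5 in the other 3, and Itgam, which encodes the alpha chain of Mac-1, had 100 to 174. The library labelled WT 1 thus stood apart in Kit and Csf1r, and it also had the most RNA of mature neutrophils. Their 10 marker genes summed to 43468 FPKM in WT 1, 8788 in WT 2, 18343 in CD274-null 1 and 31405 in CD274-null 2. In bulk RNA, fewer cells of a type and less RNA per cell cannot be told apart.

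No gene of the 34 passed the thresholds between the groups, while most of them were high in 1 library, that labelled WT 1. Of the 34, 30 had their highest FPKM in WT 1, against 23.9% of the 13230 genes tested, and 12 were at least 2-fold above every other library, against 1.77%. The difference in log2(FPKM + 0.5) between WT 1 and the median of the other 3 libraries had a median of 1.15 over the 34 genes and of -0.07 over all genes tested, and 20 of the 34 genes lay above 0.88, the 95th percentile of all genes tested. Summed over the 34 genes, FPKM was 2708 in WT 1, 1123 in WT 2, 1524 in CD274-null 1 and 1496 in CD274-null 2. CD274-null 1 was second for 24 of the 34 genes, against 4754 of the 13230 genes tested. The lowest value was in CD274-null 2 for 18 and in WT 2 for 15, against 4667 and 3154 of the genes tested. With quantile normalization, a GC correction or recovered reads, 30 genes were highest in WT 1, and with equal medians 29 were. This pattern of a library was noticed in the values, and it is described without a test. The part of the neutrophil RNA in it was not tested.

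**Figure D1:**
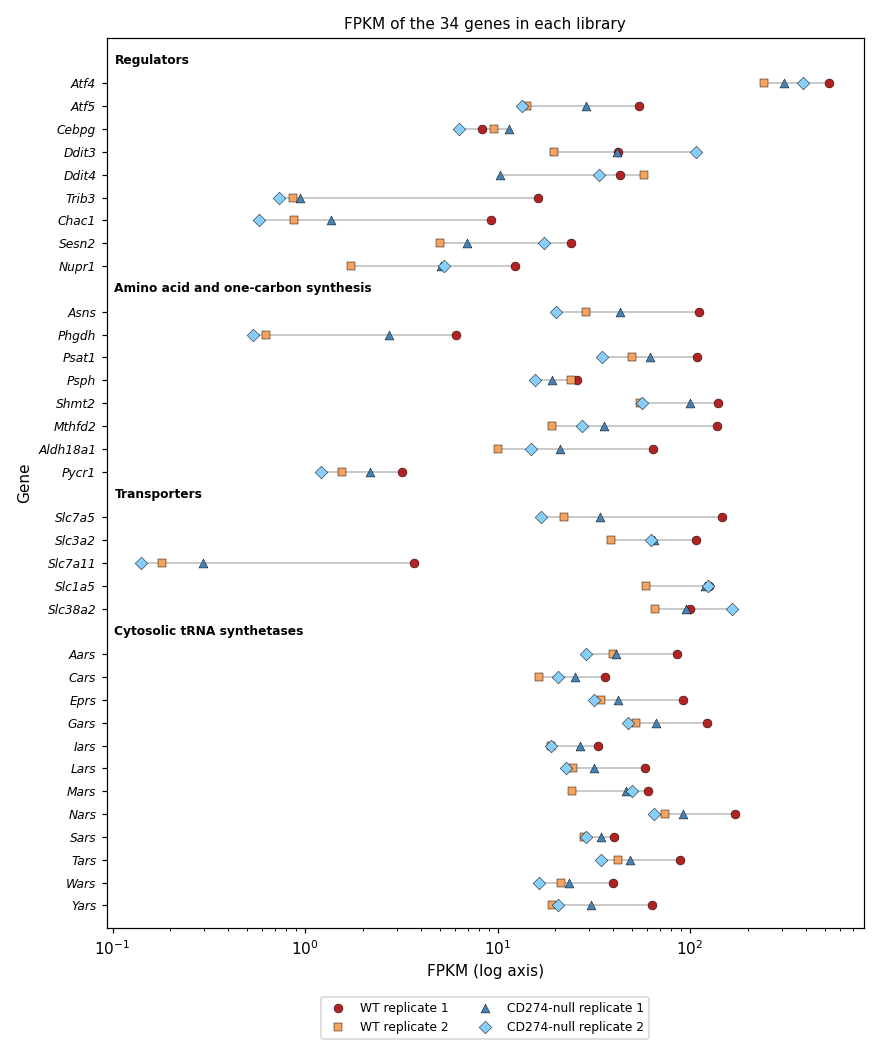
Each row is a gene and each point its FPKM in 1 library on a log axis, with a grey line from the lowest to the highest library; there are no error bars, since single libraries are shown. The red circles of WT replicate 1 lie at the right end for 30 of the 34 genes, and Trib3, Chac1 and Slc7a11 have the widest gaps, with 17.4, 6.76 and 12.5 times the next library.

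In the comparison of the libraries labelled CD274-null with those labelled WT, 0 of the 34 genes were candidates by the cutoffs that the study names, p below 0.01 with a change of over 1.5-fold, applied here to the unadjusted p (3.63% of all genes tested were), and with voom on the recovered reads 0 were as well. None had an adjusted p under 0.05 from limma with Benjamini-Hochberg adjustment (0.0756% of all genes tested), the adjusted p running from 0.344 to 0.998. One gene, Ddit4, had an unadjusted p under 0.05 from limma, and it was lower in the CD274-null libraries, against 13.7% of all genes tested in either direction and 5.7% in that one. All 34 genes passed the filter of a mean FPKM of at least 0.5, the least abundant, Slc7a11, only through WT 1. The log2 fold change was below 0 for 29 genes and above 0 for 5, with a median of -0.50, while 48.9% of all genes tested were below 0 and their median was 0.01. The FPKM of the groups overlapped for 32 of the 34 genes. The groups did not overlap for Ddit4 and Psph, both lower in the CD274-null libraries (47.3% of all genes tested did not overlap in either direction, and 21.8% were lower without overlap).

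The direction turned on which library labelled WT was used. Without WT 1, 26 log2 fold changes were above 0 and 8 below, with a median of 0.14, and 2 genes, Slc1a5 and Mars, were candidates, both higher in the CD274-null libraries (of all genes tested, 3.47% were candidates, 2.28% higher and 1.19% lower). Without WT 2, the median was -1.11, and 10 genes were candidates, all lower in the CD274-null libraries (of all genes tested, 4.79% were candidates, 2.93% higher and 1.86% lower). A fit that leaves out a library rests on a lone library of that label, WT or CD274-null, which is assumed to vary like the other group. The FPKM of both CD274-null libraries lay between those of the WT libraries for 13 of the 34 genes. The share of all genes tested with this order was not counted, so the 13 cannot be called particular to the set.

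**Figure D2:**
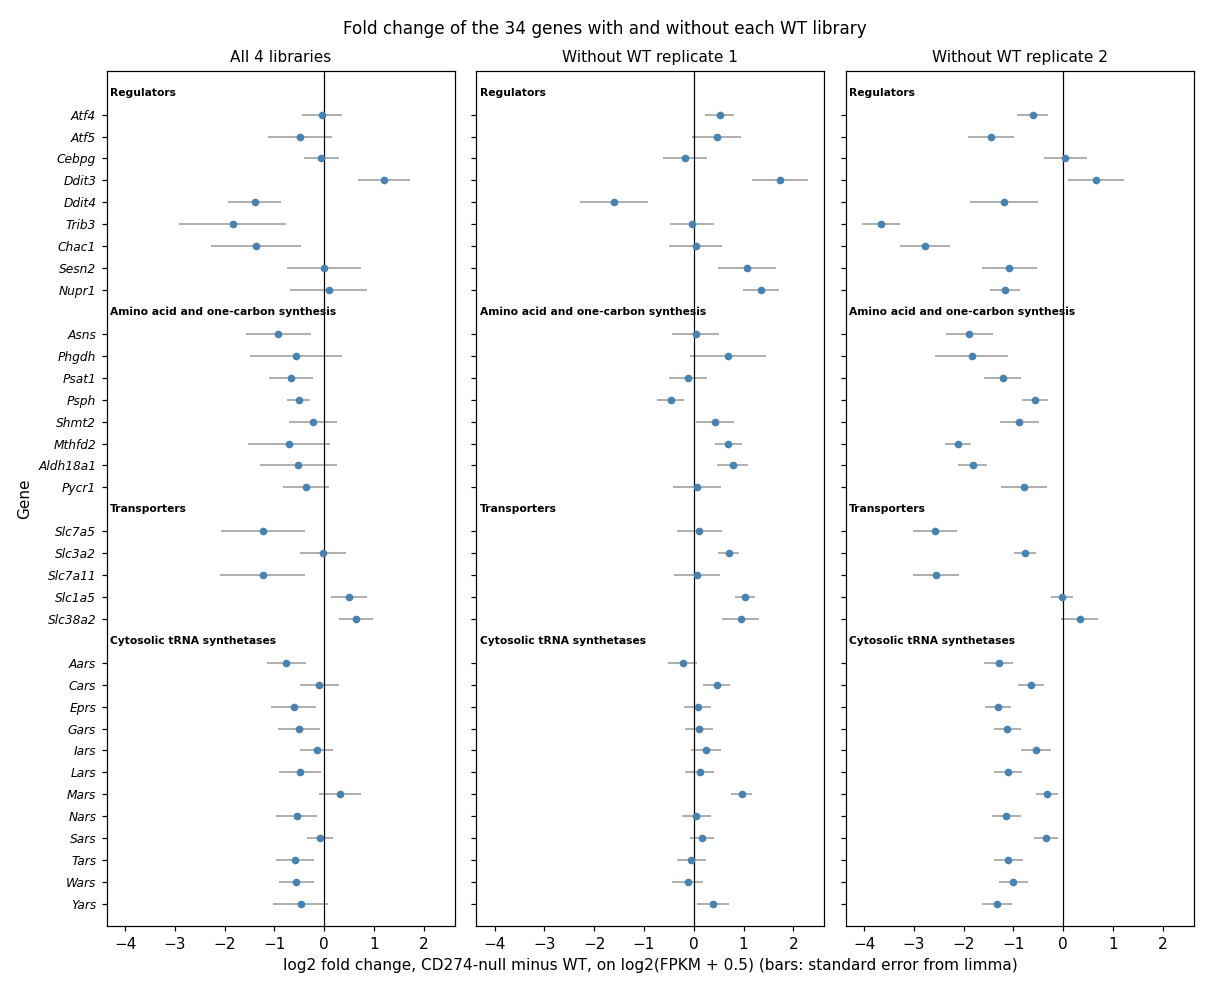
Points are log2 fold changes of CD274-null against WT on log2(FPKM + 0.5), bars are standard errors from limma, and the panels show all 4 libraries, the fit without WT replicate 1 and the fit without WT replicate 2. The points of the middle panel centre near 0.14 and those of the right panel near -1.11, so the sign of most genes follows the WT library that was kept.

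Atf4 itself was the most abundant gene of the set. Atf4 (NCBI gene 11911, chromosome 15, 80255184 to 80257545 of GRCm38) had an FPKM of 528 and 241 in the libraries labelled WT and of 307 and 388 in those labelled CD274-null, from 4227 to 10545 reads. WT 1 was highest and WT 2 lowest, with both CD274-null libraries between them, and the log2 difference was -0.05 ± 0.40 (SE, limma adjusted p = 0.971). Atf5, a related factor of the mitochondrial stress response, had 54.5 and 14.2 in the WT libraries against 28.9 and 13.4 in the null ones, so that the replicates of each group lay further apart than the group means of 34.3 and 21.1. Cebpg, the C/EBP protein that pairs with ATF4, did not follow the pattern. Its FPKM was 8.29 and 9.63 in the WT libraries against 11.5 and 6.30 in the null ones, with a log2 difference of -0.06 ± 0.35 (SE, limma adjusted p = 0.950).

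Among the regulators, the steepest differences between libraries were those of Trib3 and Chac1, late targets that ATF4 shares with CHOP. Trib3, a pseudokinase that feeds back on ATF4 and on AKT signalling, had an FPKM of 16.3 in WT 1 and of 0.862, 0.937 and 0.734 in WT 2, CD274-null 1 and CD274-null 2, from 387, 18, 17 and 15 reads. Chac1, a glutathione-degrading enzyme, had 9.26 in WT 1 and 0.876, 1.37 and 0.576 in the others, from 168, 14, 19 and 9 reads. The libraries other than WT 1 were low for both genes whatever their label. The log2 fold changes of CD274-null against WT, -1.84 for Trib3 and -1.37 for Chac1, had standard errors of 1.08 and 0.90 (adjusted p = 0.491 and 0.531 from limma), and without WT 1 they were -0.03 and 0.04.

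Nupr1, a small stress-induced nuclear protein, and Sesn2, an inhibitor of mTORC1 that senses leucine, were also highest in WT 1 and lowest in WT 2. Nupr1 had 12.3 and 1.73 FPKM in the WT libraries against 5.06 and 5.29 in the null ones, from 11 to 89 reads. Sesn2 had 24.1 and 5.03 in the WT libraries against 6.98 and 17.5 in the null ones. The log2 fold changes were 0.09 and -0.0074 with all libraries (adjusted p = 0.971 and 0.998 from limma) and 1.35 and 1.07 without WT 1 (adjusted p = 0.299 and 0.452 from limma).

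Ddit3 and Slc38a2 shared another order, led by CD274-null 2, and Ddit4 had its own, led by WT 2. Ddit3 (chromosome 10, 127290793 to 127296291), which encodes CHOP, had 42.2 and 19.6 FPKM in the WT libraries against 41.8 and 107 in the null ones, highest in CD274-null 2. WT 1 and CD274-null 1 were level, and the log2 difference was 1.20 ± 0.53 (SE, limma unadjusted p = 0.0610, adjusted p = 0.382). Its annotated span overlaps that of Mars1 on the opposite strand at their ends, and reads there cannot be assigned to a strand with this library kit. Ddit4 (chromosome 10, 59949675 to 59951770), which encodes REDD1, an inhibitor of mTORC1 that also answers to hypoxia and glucocorticoids, had 43.5 and 57.6 in the WT libraries against 10.3 and 33.7 in the null ones. It was the gene with the lowest p of the set, with a log2 difference of -1.40 ± 0.53 (SE, limma unadjusted p = 0.0364, adjusted p = 0.344), and in this fit it passed neither the candidate thresholds nor the adjusted one. Without CD274-null 1 its log2 fold change was -0.56, and without CD274-null 2 it was -2.23 (limma unadjusted p = 0.00413), which made Ddit4 a candidate in that fit, where CD274-null 1 was the lone library of its label (0.227% of all genes tested were, in that direction).

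Of the 8 enzymes, all 8 were highest in WT 1, and 7 had CD274-null 1 as the second. Asns (chromosome 6, 7675165 to 7693209), which makes asparagine from aspartate and glutamine, had 111 and 28.8 FPKM in the WT libraries against 43.5 and 20.2 in the null ones. WT 1 stood 2.56 times above the next library, and the log2 difference was -0.92 ± 0.66 (SE, limma adjusted p = 0.558). For serine synthesis, Phgdh, which catalyses the first step from 3-phosphoglycerate, had 6.05 and 0.630 in the WT libraries against 2.72 and 0.537 in the null ones, from 10 to 131 reads. Psat1, which acts next, had 109 and 50.2 in the WT libraries against 62.0 and 34.9 in the null ones. Psph, the last enzyme of the path, varied least, with 25.9 and 24.0 in the WT libraries against 19.1 and 15.7 in the null ones. Both CD274-null values of Psph lay below both WT values, yet the log2 difference of -0.51 ± 0.23 (SE, limma unadjusted p = 0.0630, adjusted p = 0.386) did not pass either threshold.

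The mitochondrial folate enzymes, which turn serine into one-carbon units, also had WT 1 first and CD274-null 1 second, with different steepness. Mthfd2 (chromosome 6, 83305704 to 83326011) had 138 and 19.2 FPKM in the WT libraries against 35.6 and 27.5 in the null ones, and Shmt2 had 139 and 55.3 in the WT libraries against 100 and 56.0 in the null ones. WT 1 was 3.86 times the next library for Mthfd2 and 1.38 times for Shmt2. In proline synthesis, Aldh18a1, the first enzyme, had 64.1 and 10.1 in the WT libraries against 21.1 and 14.9 in the null ones. Pycr1, the last, was low in every library, with 3.20 and 1.55 in the WT libraries against 2.17 and 1.21 in the null ones. The log2 fold changes of these 4 enzymes ran from -0.71 to -0.22, with adjusted p = 0.730 to 0.870 from limma.

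Of the 5 transporters, 4 were highest in WT 1. Slc7a5 (chromosome 8, 121881146 to 121907686), the light chain of the LAT1 exchanger for leucine and other large neutral amino acids, had 146 and 22.2 FPKM in the WT libraries against 34.1 and 16.9 in the null ones, from 590 to 5948 reads. Slc3a2, which encodes CD98, the heavy chain that LAT1 needs, had 108 and 38.8 in the WT libraries against 64.7 and 62.4 in the null ones, so WT 1 was 4.29 times the next library for the light chain and 1.67 times for the heavy chain. Slc7a11, the light chain of the cystine and glutamate exchanger, had 3.67 in WT 1 and 0.181, 0.294 and 0.141 in WT 2, CD274-null 1 and CD274-null 2, from 392, 17, 24 and 13 reads. The log2 fold changes were -1.23 for Slc7a5 and -1.24 for Slc7a11 with all libraries, with standard errors of 0.84 and 0.85 (adjusted p = 0.540 and 0.547 from limma), and 0.11 and 0.07 without WT 1.

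The glutamine carriers differed from these. Slc1a5, the ASCT2 exchanger, had 125 and 59.4 FPKM in the WT libraries against 120 and 124 in the null ones, so that WT 2 alone was low. Slc38a2, the SNAT2 carrier that amino acid shortage is known to raise, had 100 and 65.4 in the WT libraries against 95.8 and 165 in the null ones, highest in CD274-null 2 as for Ddit3. The log2 fold changes were 0.50 and 0.63 (standard errors 0.36 and 0.34, adjusted p = 0.562 and 0.456 from limma). Without WT 1, that of Slc1a5 was 1.03 (limma unadjusted p = 0.00471, adjusted p = 0.281).

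All 12 tRNA synthetases, the enzymes that load amino acids onto tRNAs, were highest in WT 1, and CD274-null 1 was second for 11 of them. Their summed FPKM was 891 in WT 1, 397 in WT 2, 509 in CD274-null 1 and 385 in CD274-null 2. Nars (asparagine) was the most abundant, with 171 and 74.5 in the WT libraries against 91.7 and 64.8 in the null ones, and Gars (glycine) had 123 and 52.7 in the WT libraries against 66.4 and 47.8 in the null ones. Aars (alanine) had the lowest p of the family, with 85.1 and 40.0 in the WT libraries against 41.1 and 28.7 in the null ones (log2 difference -0.76 ± 0.39 SE, limma unadjusted p = 0.0991, adjusted p = 0.441). Yars (tyrosine) had the largest difference between WT 1 and the median of the others, 1.61 on the log2 scale, with 63.7 and 19.1 in the WT libraries against 30.7 and 20.5 in the null ones. Eprs, which joins glutamate and proline charging in 1 protein, had 91.5 and 34.5 in the WT libraries against 42.1 and 31.8 in the null ones. WT 1 was 1.69 to 1.85 times the next library for Wars (tryptophan), Tars (threonine) and Lars (leucine).

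The smallest differences in the family were those of Mars (methionine), Sars (serine), Iars (isoleucine) and Cars (cysteine), where WT 1 was 1.21, 1.17, 1.24 and 1.43 times the next library. Mars had 60.5 and 24.5 FPKM in the WT libraries against 46.3 and 50 in the null ones, and its log2 fold change of 0.32 was the only 1 of the 12 above 0 (standard error 0.42, limma adjusted p = 0.765). Without WT 1 it was 0.96 (limma unadjusted p = 0.00715, adjusted p = 0.287). Over the 12 genes the log2 fold change had a median of -0.50 with all libraries, of 0.11 without WT 1 and of -1.11 without WT 2.

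The other genes of the pathway, written as 6 lists of 104 genes in all, were read in the same way, with no test of their difference from the 34 genes. Of the 95 that were tested, 38 (40%) were highest in WT 1 and 7 (7.37%) were at least 2-fold above every other library, where all genes tested had 23.9% and 1.77% (Stc2 and Slc1a4 among the 7, named after their values were seen, passed the filter only through WT 1, like Slc7a11). The median difference between WT 1 and the other 3 libraries was 0.11 on the log2 scale. For 17 mitochondrial tRNA synthetases it was -0.02, and 2 were highest in WT 1. For 11 other cytosolic synthetase genes and scaffold proteins it was 0.39, with 9 highest in WT 1 but 0 of them at least 2-fold above every other library. For 17 genes of the eIF2 kinases, eIF2, its exchange factor and its phosphatases it was 0.17, and for 19 further serine, folate, proline and glutamine enzymes it was 0.20. The median was 0.51 for 18 further ATF4 targets and partners and -0.08 for 13 other amino acid transporters, and the values within these lists were wide apart.

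**Figure D3:**
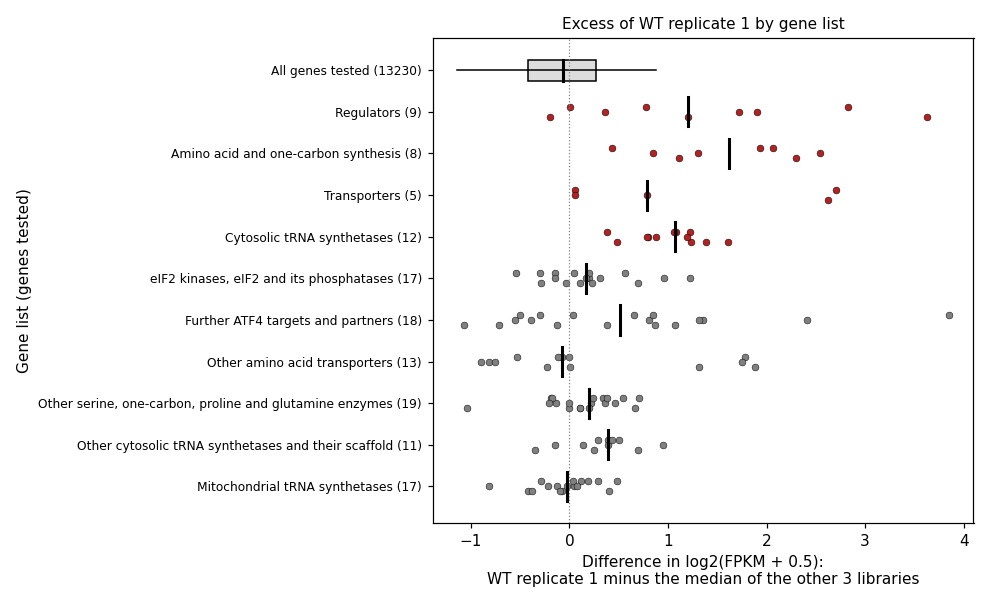
The x axis is log2(FPKM + 0.5) in WT replicate 1 minus the median of the other 3 libraries, each point is a gene, black bars are list medians, red points are the 34 genes and grey points the other pathway genes; for all genes tested the box spans the quartiles and the line the 5th to 95th percentile. The medians of the red lists lie between 0.79 and 1.61, while those of the grey lists lie between -0.08 and 0.51.

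Among these other genes, 3 were candidates, 1 higher and 2 lower in the libraries labelled CD274-null (2.39% and 1.24% of all genes tested were). Cars2, the mitochondrial cysteine synthetase, had 19.4 and 16.9 FPKM in the WT libraries against 34.7 and 39.2 in the null ones (log2 difference 1.0 ± 0.22 SE, limma adjusted p = 0.251). Slc36a4, a carrier of proline and tryptophan, had 35.3 and 17.2 in the WT libraries against 9.22 and 5.34 in the null ones (log2 difference -1.74 ± 0.42 SE, limma adjusted p = 0.269). Ero1a, an oxidase of the endoplasmic reticulum, had 53.6 and 54.9 in the WT libraries against 34.1 and 30.9 in the null ones (log2 difference -0.73 ± 0.20 SE, limma adjusted p = 0.274). With 1 library left out, Ero1a was a candidate in none of the 4 fits (limma unadjusted p = 0.0198 to 0.0599). Cars2 was one without WT 1 but not in the other 3 fits (limma unadjusted p = 0.0116 to 0.0398), and Slc36a4 without WT 2 but not in the other 3 (limma unadjusted p = 0.0285 to 0.0834). Cth, which makes cysteine and is an ATF4 target, was as steep as Trib3, with 13.0 FPKM in WT 1 and 0.436, 0.439 and 0.836 in WT 2, CD274-null 1 and CD274-null 2. The arginine transporter Slc7a1 had 49.1 in WT 1 and 14.2, 14.5 and 10.1 in the same order. Vegfa, an angiogenic factor that ATF4 and hypoxia are known to raise, was highest in CD274-null 2, with 52.8 and 15.2 in the WT libraries against 69.3 and 160 in the null ones (log2 fold change 1.87, limma unadjusted p = 0.0245, adjusted p = 0.316).

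Promoter sequences are shown for the C/EBP-ATF response element, to which ATF4 is known to bind. The letters TGATGNAAN were searched on both strands, overlaps included, from 250 bases before to 50 bases after the annotated starts of RefSeq (GRCm38.p6). Of the 28 genes of the set with such a window, 11 (39.3%) had a match, against 4.50% of the 27025 genes with a window. The set was listed as ATF4 and its known targets, so a share above that of all genes follows from the choice of genes and says nothing about these libraries. A match is a description of the letters and not a bound site. The windows of Mthfd2, Slc3a2 and Aars, among others, belong to starts inside the annotated spans, so the outer ends of those spans were not searched. The 4 promoters below are those of a regulator, a stress enzyme, a transporter and a synthesis enzyme with a match, and genes without a match, such as Mthfd2 and Aldh18a1, were also highest in WT 1. Each is written 5′ to 3′ along the gene, with the matched letters in capitals.
Trib3, chr2:152344011-152344310, minus strand: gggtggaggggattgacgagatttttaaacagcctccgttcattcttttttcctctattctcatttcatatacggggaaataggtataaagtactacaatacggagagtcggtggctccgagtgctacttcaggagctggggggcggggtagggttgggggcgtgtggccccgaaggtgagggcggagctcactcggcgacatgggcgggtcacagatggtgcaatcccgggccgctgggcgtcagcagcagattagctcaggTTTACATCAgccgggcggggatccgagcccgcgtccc
Chac1, chr2:119350992-119351291, plus strand: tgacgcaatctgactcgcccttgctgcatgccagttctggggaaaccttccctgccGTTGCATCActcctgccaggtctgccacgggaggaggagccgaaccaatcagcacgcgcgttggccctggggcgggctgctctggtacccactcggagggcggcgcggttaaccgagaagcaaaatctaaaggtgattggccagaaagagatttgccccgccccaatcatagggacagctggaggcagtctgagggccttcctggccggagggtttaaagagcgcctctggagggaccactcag
Slc7a11, chr3:50443564-50443863, minus strand: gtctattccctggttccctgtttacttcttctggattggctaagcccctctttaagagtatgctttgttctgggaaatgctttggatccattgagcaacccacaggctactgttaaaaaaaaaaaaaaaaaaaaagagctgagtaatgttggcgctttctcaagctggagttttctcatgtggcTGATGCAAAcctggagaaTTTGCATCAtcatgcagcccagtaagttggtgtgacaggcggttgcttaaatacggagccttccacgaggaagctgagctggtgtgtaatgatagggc
Asns, chr6:7693160-7693459, minus strand: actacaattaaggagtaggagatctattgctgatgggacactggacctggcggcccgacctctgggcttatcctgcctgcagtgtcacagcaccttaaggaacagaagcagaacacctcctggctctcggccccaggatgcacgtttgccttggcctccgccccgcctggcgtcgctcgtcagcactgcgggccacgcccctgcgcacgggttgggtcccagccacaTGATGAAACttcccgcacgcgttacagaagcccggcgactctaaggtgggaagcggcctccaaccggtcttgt

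In Asns the match begins 23 bases before the annotated start and reads along the gene, and in Chac1 it begins 194 bases before the start and reads on the opposite strand. Slc7a11, whose window belongs to a start inside the annotated span of the gene, holds a pair of matches that face each other, beginning 66 and 48 bases before the start. In Trib3 the match lies after the start, from base 14. Aars also had matches, which are not shown. The matches of 6 other genes are shown as 30 bases each. They let the matched letters be compared between a stress regulator, a proline enzyme and other synthetases.
Nupr1, chr7:126625563-126625592, minus strand: gaaagggccagATTGCATCAgacagggctt
Pycr1, chr11:120643833-120643862, minus strand: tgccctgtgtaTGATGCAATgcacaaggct
Gars, chr6:55037959-55037988, plus strand: ctggctgcgctATTTCATCAtgcaccgggc
Iars, chr13:49682125-49682154, plus strand: gcactgtcagtATTGCATCAcctccagacg
Tars, chr15:11399656-11399685, minus strand: ccaggagtcccGTTGCATCAgctggttagc
Yars, chr4:129189895-129189924, plus strand: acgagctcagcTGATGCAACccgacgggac
Among the sequences shown, those of Nupr1, Pycr1 and Iars share ATTGCATCA or its reverse complement TGATGCAAT. Those of Chac1, Tars and Yars share GTTGCATCA or its reverse complement TGATGCAAC. The matches of Slc7a11 read TGATGCAAA and its reverse complement TTTGCATCA. These differ only in the last letter of the searched motif, which was left free. No promoter window was used for Slc7a5, Slc1a5, Cars, Lars, Nars and Wars.

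Markers of other cells were read in the same libraries. Of 10 genes of mature neutrophils, 7 were highest in WT 1 and 9 were lowest in WT 2. Cxcr2, a chemokine receptor of mature neutrophils, had 19.7 in WT 1 and 1.03, 2.86 and 2.11 in WT 2, CD274-null 1 and CD274-null 2. The other 3, Camp, Ltf and Ly6g, were highest in CD274-null 2, with 5918, 216 and 19.1 FPKM. Cd34, a progenitor marker, had 4.32 in WT 1 and 14.0 to 31.7 in the others. Of the 14 B cell and plasma cell markers, 5 were at 0 in each WT library, and their summed FPKM was 208 and 126 in the WT libraries against 446 and 509 in the null ones, with Xbp1, which leukemia cells also express, making up much of the WT sums at 177 and 66.8 and having 133 and 106 in the null libraries. Cd79b, also among the 14, overlapped between the groups, with 12.8 and 36.2 in the WT libraries against 35.6 and 37.4 in the null ones. The immunoglobulin genes were higher in the null libraries. Igkc, the kappa constant region, had 8.64 and 7.98 in the WT libraries against 214 and 189 (log2 difference 4.52 ± 0.20 SE, limma adjusted p = 0.00245). Jchain, which joins antibody units, had 0.370 and 0.514 against 12.3 and 10.5 (3.65 ± 0.33, limma adjusted p = 0.0369). Ighm, the mu constant region, had 9.04 and 14.1 against 49.1 and 162 and was a candidate (2.93 ± 0.55, limma unadjusted p = 0.00163, adjusted p = 0.247), though not without WT 1 or without CD274-null 2 (limma unadjusted p = 0.0124 and 0.0111). With 1 library left out, the log2 difference was 4.43 to 4.60 for Igkc and 3.54 to 3.77 for Jchain. The adjusted p of neither gene stayed under 0.05 in every such fit, where 1 label rests on a lone library. The 8 T cell markers summed to at most 4 FPKM in a library. The erythroid markers summed to 55.8 FPKM in WT 2 and to at most 5.41 in the others, and Slc4a1 was at 0 in every library. The 9 macrophage markers summed to 89.6 to 147, most of it Vcam1, an adhesion molecule, which had 117 and 92.3 in the WT libraries against 53.7 and 59.8 in the null ones. Vcam1 was a candidate (-0.87 ± 0.22, limma unadjusted p = 0.00704, adjusted p = 0.272), and with 1 library left out it was one without WT 2 but not in the other 3 fits (limma unadjusted p = 0.0239 to 0.0610). The part of these other cells in the values of the 34 genes was not tested either.

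**Figure D4:**
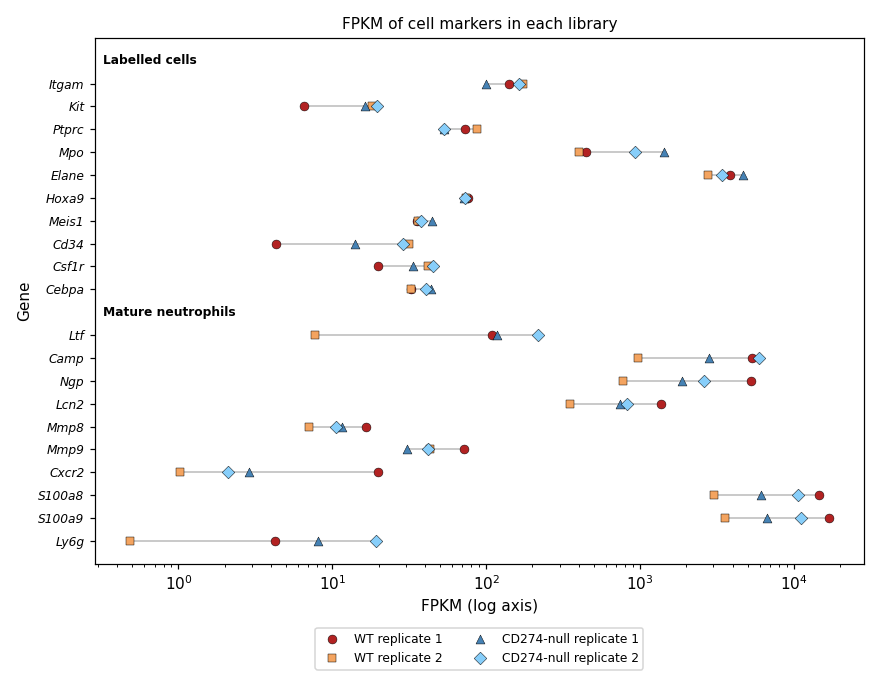
Points are FPKM per library on a log axis for markers of the labelled cells and of mature neutrophils, with a grey line from the lowest to the highest library; single libraries are shown without error bars. WT replicate 1 is lowest for Kit (6.59) and Cd34 (4.32) and highest for 7 of the 10 neutrophil genes.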

How the data were processed

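The authors deposited 1 table of FPKM on a linear scale, with NCBI gene numbers in rows and the 4 libraries in columns. The submitters' processing notes name CASAVA 1.8.2 and TopHat2 2.0.12; the program, gene lengths and strand setting behind FPKM are not given in the sources used here. Gene numbers were matched to RefSeq symbols of GRCm38.p6. The members and gene lists were chosen with earlier results of these data known.

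Values were compared as log2(FPKM + 0.5) by limma 3.58.1 (R 4.3.3, empirical Bayes with a trend, no covariates). The test took in 13230 genes whose mean FPKM reached 0.5, and Benjamini-Hochberg adjustment covered them all. Differences on this scale understate those of low genes. The steps between FPKM values gave whole reads in Python 3.11.15 for 17083 genes, 100% of the genes detected in 2 or more libraries, within the rounding of the deposited digits. They are the lowest whole numbers for each gene. A whole factor that all libraries of a gene share cannot be seen, so the reads of a gene can be too low. A member had 9 to 10545 reads in a library. Fit and recovery were tested on simulated data.

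Every member was named, with full statistics where it was a candidate, had p under 0.05, or had non-overlapping groups and a change over 1.5-fold; statistics of other members, and the markers shown, were chosen after their values were seen. From the other lists, candidates and at most the 2 largest changes per list could be named. The library kit keeps no strand, and exons shared with neighbours cannot be told apart where Atf5 overlaps Nup62, Psph Cct6a, Shmt2 Ndufa4l2, Aars Ddx19b, Wars Wdr25, and Ddit3 Mbd6 and Mars1. Alternatives were pseudocounts of 0.1 and 1, no filter or a mean FPKM of 5, equal quantiles or medians, limma without trend or without moderation, a GC correction (loess, span 0.3), the replicate number as a block, voom on the recovered reads, and leaving out each library. Some items are not reported here.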

Additional observations from a re-analysis of the deposited data

How the results depend on the processing

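No member was a candidate under any of the alternatives that kept all 4 libraries and had no block. With the replicate number as a block 1 member, Ddit4, was a candidate, lower in CD274-null (unadjusted p = 0.00393, adjusted p = 0.200 from limma; 1 also with the GC correction), and 526 of all genes were against 480. The numbers do not pair the libraries by the labels, and same-numbered deviations from the group means correlated at -0.0151 across 13230 genes, so the block is given as an alternative only.

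Leaving out 1 library in turn gave 0 to 2 higher and 0 to 10 lower members, the 2 higher without WT 1, the 10 lower without WT 2 and 1 lower, Ddit4, without CD274-null 2; the median of the regulators ran from -1.17 to 0.46. The log2 fold change changed sign with 1 library left out for 25 members: Atf4 -0.61 to 0.52, Atf5 -1.45 to 0.46, Cebpg -0.47 to 0.34, Chac1 -2.78 to 0.04, Sesn2 -1.08 to 1.07, Nupr1 -1.17 to 1.35, Asns -1.89 to 0.04, Phgdh -1.84 to 0.69, Shmt2 -0.88 to 0.43, Mthfd2 -2.12 to 0.69, Aldh18a1 -1.82 to 0.78, Pycr1 -0.79 to 0.06, Slc7a5 -2.58 to 0.11, Slc3a2 -0.76 to 0.70, Slc7a11 -2.55 to 0.07, Slc1a5 -0.03 to 1.03, Cars -0.65 to 0.46, Eprs -1.31 to 0.08, Gars -1.12 to 0.10, Iars -0.55 to 0.25, Lars -1.11 to 0.12, Mars -0.33 to 0.96, Nars -1.14 to 0.05, Sars -0.35 to 0.17, Yars -1.33 to 0.39. With a pseudocount of 0.1 Sesn2 was 0.0028, and with the GC correction, alone or with the block, Nupr1 was -0.02.

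Over all genes, candidates numbered 170 without moderation of the variance, 302 with the block and GC correction, and 147 to 634 with a library left out (147 without CD274-null 2, 235 without CD274-null 1). Higher candidates were 65.8% of them, against 54.7% with equal quantiles, 55.7% with equal medians and 52.2% with the GC correction. Adjusted p under 0.05 was reached by 10 genes, and by 1 without the filter, 4 at a mean FPKM of at least 5, 5 with equal quantiles, 5 with equal medians, 6 without trend, 21 with the block, 0 without moderation, 0 with voom, 0 with the GC correction, 0 with both GC correction and block, and 0 to 13 with a library left out. The median of all genes ran from -0.06 to 0.08 with a library left out. Candidates among the other pathway genes were 3, and 1 without trend, 1 without moderation and 0 to 5 with a library left out. With a mean FPKM of at least 5, Trib3, Chac1, Phgdh, Pycr1 and Slc7a11 were not tested. Depth limits the low members: 6 of them, Trib3, Chac1, Nupr1, Phgdh, Pycr1 and Slc7a11, had under 50 reads in at least 1 library. The cause of these changes was not tested.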
